A study of Mus musculus with 15 samples.

Results

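The genes described here encode proteins of the mitochondrial ribosome (symbols starting with Mrpl or Mrps) and of the machinery that brings proteins into mitochondria (Timm and Tomm). They were taken as the probe sets (members) of a mouse oligonucleotide array, the MG-U74Av2, whose annotation gives a single symbol with 1 of these 4 beginnings, 95 of the 12422 probe sets that are not controls, and they stand for 78 of 8251 genes. The series, titled as one on cardiac hypertrophy from pressure overload, measured total RNA of the left ventricle on 15 arrays. The labels give 3 female and 6 male hearts from sham controls and 3 female and 3 male hearts from animals with the operation called TAC, which in this field usually means narrowing of the transverse aorta, though the labels do not spell it out. The labels name no strain, age or time between operation and collection. They also do not say that each array is its own animal, and p-values here therefore reflect the spread between these samples, which may be technical. The rule used the names of the genes and no measured value.

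Mitochondria keep a small genome that encodes core subunits of the respiratory chain, and they translate it on a ribosome of their own. The RNAs of that ribosome are encoded in mitochondria, whereas its proteins, like nearly all mitochondrial proteins, are encoded in the nucleus, made in the cytosol and imported. The TOM complex of the outer membrane (Tomm genes) is the common entry gate. Small Tim proteins of the space between the membranes chaperone hydrophobic cargo, and the TIM23 and TIM22 translocases of the inner membrane (Timm genes) pass precursors into the matrix or insert them into the membrane. Heart muscle is among the tissues richest in mitochondria.

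As a check of the material, the 10 cardiomyocyte markers on the array had a summed intensity of 32390 to 38520 on the sham arrays and 32594 to 40272 on the TAC arrays, and their groups overlapped. Of 7 hypertrophy stress genes, such as Nppa and Acta1, 5 were called higher with TAC. All correlations between pairs of arrays lay between 0.946 and 0.980 on the log2 scale. Female TAC 1 was the array with the lowest median intensity, 21.3 of a range from 21.3 to 26.7, and the lowest mean correlation with the others, 0.956.

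No member passed the test of the TAC effect. Of the 95 members, 75 probe sets for 63 genes were bright enough to be tested. Values were floored at an intensity of 20, and the brightest 60% by mean log2 intensity were kept. The TAC effect is the log2 change, TAC minus sham, taken within each sex and averaged. In limma, with adjustment over all 7453 tested probe sets, 0 of 75 members had an adjusted p under 0.05, where 0.322% of all tested probe sets did. The smallest adjusted p of a member was 0.553. At an unadjusted p under 0.05 there were 2 members with a log2 change below 0 and 0 above, against 4.66% and 2.86% of all tested probe sets. An ordinary linear model without limma's moderation of the spread also called 0 members.

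The effects were small and their intervals narrow. The log2 changes of the 75 members ran from -0.39 to 0.18, with a median SE of 0.13. For 66 of them the 95% interval on the floored values lay within a 1.5-fold change in either direction (a log2 change of 0.585). The floor can shrink both a change and its interval, and 18 of the 75 were below it on some arrays. For those, a change of 1.5-fold in the RNA is not excluded by the interval. Mrpl39, with every female TAC array below the floor, was counted among the 66. Of all tested probe sets, 86.8% had such an interval, so this precision is that of the arrays at large. For Mrpl9, Mrpl2, Mrpl38, Mrps25, Mrps26, Mrps15, Mrps16, Tomm7 and Timm8a2, 9 probe sets in all, the interval reached further.

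**Figure D1:**
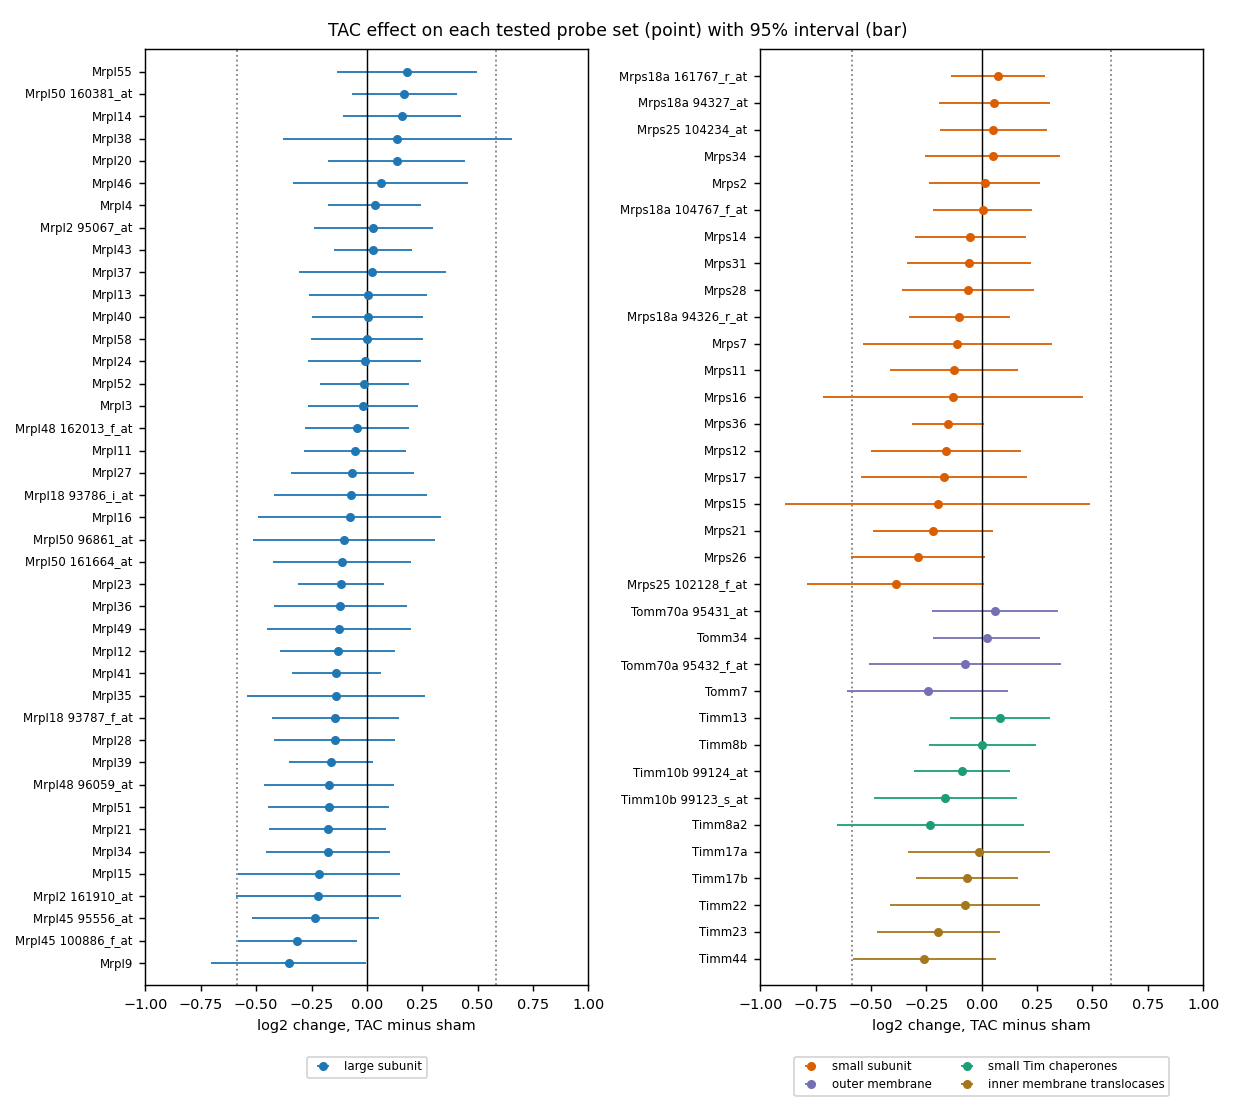
The log2 change of each tested member, TAC minus sham averaged over the sexes, is plotted as a point with its 95% interval as a bar, in the colours of the 5 functional groups. Dotted lines mark a 1.5-fold change. Of the 75 points, 52 lie left of 0, and 66 bars stay between the dotted lines.

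On the deposited scale more signs were below 0 than above, among the members and over all tested probe sets. Of the 75 tested members, 52 had a log2 change below 0, or 69.3%, where 58.2% of all tested probe sets did. The median log2 change was -0.08 for the members and -0.03 for all tested probe sets. In females 54 members, or 72%, were below 0, beside 59.4% of all, with a member median of -0.07. In males it was 47, or 62.7%, beside 52.7% of all, with a median of -0.05. The log2 change was below 0 in both sexes for 37 members and above 0 in both for 11, where it was below in both for 2615 of the 7453 tested probe sets, or 35.1%, and above in both for 1713. With each array centred on its median, 43 of 74 members were below 0, beside 43.8% of all tested probe sets. The median was then -0.02 for the members and 0.02 for all. With quantile normalization 48 of 74 members were below 0, beside 51.0% of all, with medians of -0.05 and -0.0042. Under both scalings the member median stayed below that of all tested probe sets. The difference between the members and all tested probe sets was not tested.

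Nuclear genes of the respiratory chain had a lower median on the same scale. Of 78 tested probe sets for nuclear subunits of the respiratory chain and ATP synthase, 71 had a log2 change below 0. Their median was -0.16, and 14 of them were below 0 at an unadjusted p under 0.05, with 0 called by limma. With each array centred on its median, 66 of the 78 were below 0. Cytosolic ribosomal proteins, which form the ribosome of the cytoplasm, were below 0 in 23 of 35 tested probe sets with a median of -0.03, and with each array centred on its median 15 of 34 were. Whether these 3 sets differ was not tested. In whole ventricle, fewer cells of a type and less RNA per cell cannot be told apart.

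**Figure D2:**
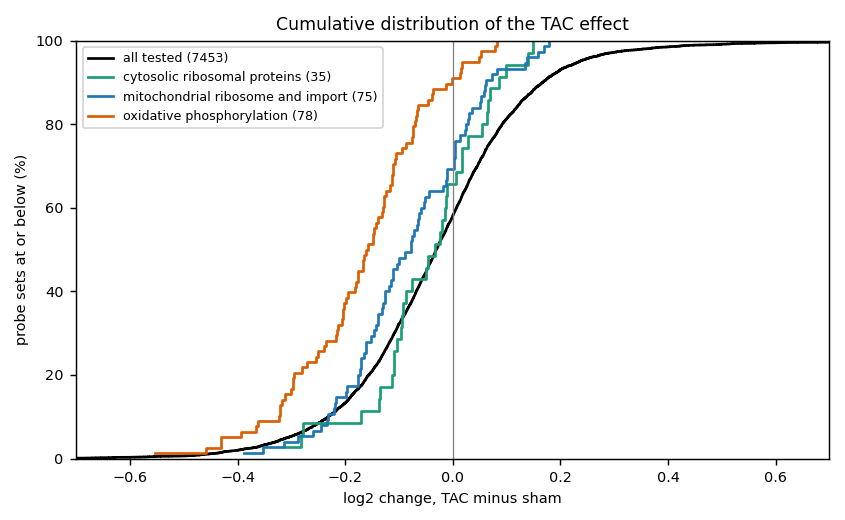
Cumulative share of probe sets (vertical axis, %) at or below each log2 change of TAC minus sham (horizontal axis) for 4 sets. The curve of the mitochondrial ribosome and import genes (median -0.08) lies between that of all tested probe sets (median -0.03) and that of the oxidative phosphorylation subunits (median -0.16).

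Single arrays of a group differed by more than the group medians did. For each array, the median deviation of the 75 members from their sham mean was taken on the log2 scale. It ran from -0.11 to 0.14 on the 9 sham arrays and from -0.19 to 0.16 on the 6 TAC arrays, so that the groups overlapped over nearly their whole range. Female TAC 1 and female TAC 2 were the lowest and the highest TAC arrays. On female TAC 1, 67 of the 75 members were below their sham median, and on female TAC 2 only 19 were. The median over all tested probe sets moved the same way on these arrays, to -0.12 and 0.08. Without female TAC 1, 44 of 75 members had a log2 change below 0 (member median -0.03), and without female TAC 2 it was 64 (member median -0.14). The share of all tested probe sets below 0 moved with it, to 49.6% without female TAC 1 and 63.5% without female TAC 2.

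**Figure D3:**
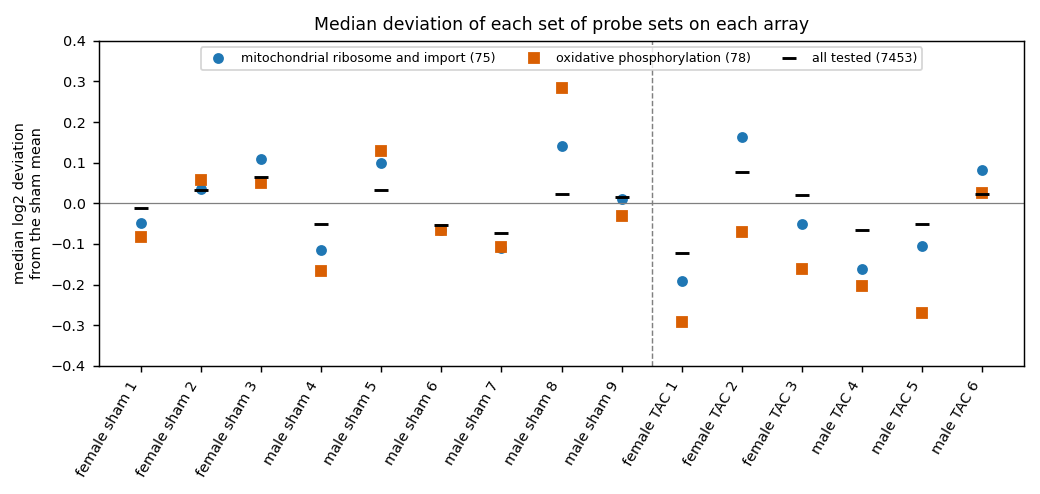
Median log2 deviation from the sham mean on each of the 15 arrays, for the 75 members (circles), 78 oxidative phosphorylation probe sets (squares) and all tested probe sets (dashes). The circles lie on the same side of 0 as the dashes except on female TAC 3 (-0.05 and 0.02). The circles of the 6 TAC arrays, from -0.19 to 0.16, cover the range of the sham arrays.

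The members had a positive median correlation from array to array, as did the sets set beside them. After the group means were removed, the median correlation between pairs of members over the 15 arrays was 0.24, where it was 0.24 for the cytosolic ribosomal proteins, 0.41 for the oxidative phosphorylation subunits and 0.07 between pairs of all tested probe sets. The pairs share their arrays and the level of each array. With the median deviation of each array also subtracted, the values were 0.08 for the members, 0.10 for the cytosolic ribosomal proteins, 0.24 for the oxidative phosphorylation subunits and -0.00074 for all. These correlations are given as a description.

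Promoters were read for features that the rule did not use. Nuclear genes for mitochondrial proteins are known targets of NRF1, of the ETS-family factor GABP and of YY1, and in muscle of the estrogen-related receptors (ERR). Of the 78 genes, 70 had a promoter window in the RefSeq table of build GRCm38.p6, from 250 bases before to 50 after the gene's start. Each window was searched on both strands for CGCATGCG (the core of the NRF1 element, which is its own reverse complement), CCGGAAG (ETS family), AAGATGGCG (YY1) and TCAAGGTCA (ERR). None of the 4 motifs contains another. The stretches shown belong to the 4 members of smallest p, among the 14 with the smallest p on either side of 0, whose window holds a motif before the start. They are written 5′ to 3′ on the gene's strand, with the motif in capitals.

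Mrpl9, 57 bases up to the start at chr3:94443279-94443335, plus strand, with the NRF1 core in capitals: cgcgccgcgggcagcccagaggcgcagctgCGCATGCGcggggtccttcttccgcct
Mrpl39, 68 bases at chr16:84735331-84735398, minus strand, with the NRF1 core in capitals: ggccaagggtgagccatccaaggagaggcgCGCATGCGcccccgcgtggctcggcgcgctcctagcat
Timm13, 68 bases at chr10:80901125-80901192, minus strand, with the NRF1 core in capitals: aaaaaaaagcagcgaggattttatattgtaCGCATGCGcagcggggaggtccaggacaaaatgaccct
Mrps26, 44 bases up to the start at chr2:130563713-130563756, plus strand, with the ETS motif in capitals, as its reverse complement: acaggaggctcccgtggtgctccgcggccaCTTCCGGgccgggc

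The ETS motif was the most frequent. It was in the windows of 26 of the 70 genes, or 37.1%, where 17.9% of 4498 genes with a tested probe set and a window held it, and 9.93% of all 27025 genes of the table. Both of these sets include members, and a gene with several starts was counted where any of its windows held the motif. It was found in 19 of 54 ribosomal protein genes and in 7 of 16 import genes. The YY1 motif was in 7 genes (10%, against 3.42% and 1.64%), all of them ribosomal protein genes. The NRF1 core was in 4, which were Mrpl9, Mrpl39, Mrpl17 and Timm13 (5.71%, against 3.96% and 2.07%), and the ERR motif in 1, Timm8b (1.43%, against 0.356% and 0.466%). The NRF1 core began 27 bases before the start in Mrpl9, 124 in Mrpl39 and 193 in Timm13, and the ETS motif 14 before it in Mrps26. Of the 21 tested genes with the ETS motif, each taken at its brightest probe set, 16 had a log2 change below 0 with a median of -0.13, and of the 35 without it 25 did with a median of -0.08. A match is a run of letters, not a bound site, and the shares are given without a test.

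**Figure D4:**
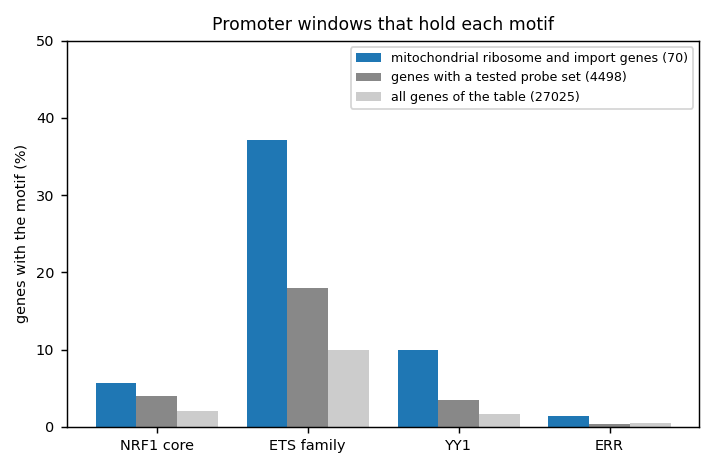
Share of genes (%) whose promoter window holds each of 4 motifs, for the 70 mitochondrial ribosome and import genes, for 4498 genes with a tested probe set and for all 27025 genes of the table. The ETS motif stands at 37.1%, 17.9% and 9.93%.

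Genes of the large subunit, which holds the site where peptide bonds are made, came first in number. Of 51 probe sets for 40 genes, 41 were tested, and 28 of these had a log2 change below 0 with a median of -0.08. The values ran from -0.35 to 0.18. With each array centred on its median, 22 of 40 tested probe sets were below 0, with a median of -0.02. The 2 members with an unadjusted p under 0.05 were both of this subunit.

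Mrpl45, a protein at the exit of the nascent chain tunnel that anchors the ribosome to the inner membrane, had 2 probe sets. On 100886_f_at, intensities on the female arrays were 30.7, 23.8 and 37.4 after sham and 20.3, 23.4 and 27.7 after TAC. On the male arrays they ranged from 27.2 to 39.3 with a median of 34.3 after sham (n = 6) and were 26.0, 27.6 and 28.8 after TAC. Female TAC 1 and 2 were below all female sham values and male TAC 4 was below all male sham values, and the other 3 TAC arrays lay within the sham range of their sex. The log2 change was -0.31 ± 0.13 (SE) with an adjusted p of 0.553 in limma, the smallest of any member. The suffix f marks a set whose probes can bind related sequences. On the other set, 95556_at, the values were 46.7 to 81.0 on the sham arrays (median 54.2) and 37.7 to 64.1 on the TAC arrays (median 50.7). Its groups overlapped and its log2 change was -0.23 ± 0.14 (SE), with an adjusted p of 0.754.

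Mrpl9, a protein of the large subunit's body, was next. Its readings on the female arrays were 62.4, 59.7 and 74.2 after sham, against 54.9, 61.6 and 43.9 after TAC. In males, intensities ranged from 43.2 to 70.4 with a median of 56.3 after sham (n = 6) and stood at 48.3, 26.8 and 57.9 after TAC. Male TAC 5 was below every sham array, and the other 5 TAC arrays lay within the sham range. This gave a log2 change of -0.35 ± 0.16 (SE), with a 95% interval of -0.70 to -0.0054 and an adjusted p of 0.649 in limma. It was -0.19 without male TAC 5.

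Mrpl39 lay close to the floor. Its intensity in females was 26.1, 24.0 and 21.3 after sham and 14.6, 13.4 and 17.7 after TAC. Male sham arrays ranged from 8.59 to 26.0 with a median of 19.2 (n = 6), and male TAC arrays read 17.0, 11.3 and 20.3. All female TAC arrays were below all female sham arrays and below the floor, as were 2 of the 3 male TAC arrays and 3 of the 6 male sham arrays. The log2 change on the floored values was -0.16 ± 0.09 (SE) with an adjusted p of 0.740, and with the female TAC group wholly under the floor its size was not measured.

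Of the 6 members with a log2 change above 0 and the smallest p, 4 were large-subunit genes. Mrpl50 had 3 probe sets, and on 160381_at values in females were 108, 141 and 142 on the sham arrays and 165, 145 and 149.9 on the TAC arrays. Those in males ranged from 121 to 179 with a median of 158 on the sham arrays (n = 6) and came to 174, 170.0 and 148 on the TAC arrays. All female TAC values were above all female sham values, and the male TAC values lay within the male sham range. With the sexes pooled, the TAC values lay within the range of the sham values. The log2 change was 0.17 ± 0.11 (SE) (adjusted p = 0.791 in limma). The other sets of Mrpl50, 161664_at and 96861_at, gave -0.11 ± 0.15 (SE) and -0.10 ± 0.19 (SE), with the opposite sign.

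Mrpl14 encodes a protein at the face between the subunits, where the ribosome-silencing factor MALSU1 is known to bind. Its intensities on the female arrays were 26.1, 24.5 and 32.5 after sham and 30.8, 31.9 and 31.4 after TAC. On the male arrays they ranged from 24.1 to 37.6 with a median of 29.2 after sham (n = 6) and were 27.9, 31.8 and 36.4 after TAC. The 6 TAC values lay inside the range of the 9 sham values. That is a log2 change of 0.16 ± 0.13 (SE) (adjusted p = 0.836).

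Mrpl55 and Mrpl20 were dim. The values of Mrpl55 were 16.6 to 39.9 on the sham arrays (median 24.9) and 25.1 to 35.2 on the TAC arrays (median 29.5), with 2 sham arrays below the floor, and its log2 change was 0.18 ± 0.15 (SE) (adjusted p = 0.844 in limma). Those of Mrpl20 were 0.406 to 35.4 on the sham arrays (median 24.9) and 21.9 to 32.7 on the TAC arrays (median 28.2), and its log2 change was 0.13 ± 0.15 (SE) (adjusted p = 0.884). The lowest Mrpl20 value, on male sham 6, stood far below the next, which was 17.0. All TAC values of both genes were above the floor.

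Among the other large-subunit genes was Mrpl12, a protein of the stalk that recruits translation factors. Its values were 159 to 259 on the sham arrays (median 207) and 155 to 220.0 on the TAC arrays (median 188), and its log2 change was -0.13 ± 0.12 (SE) (adjusted p = 0.863). Mrpl58, a peptidyl-tRNA hydrolase built into the large subunit, had 0.0021 ± 0.12 (SE). Mrpl38 had one of the wider intervals, -0.38 to 0.65, around a log2 change of 0.14. Its lowest value, 37.4 on male sham 9, stood far below the next sham value, which was 105. Of the 10 untested large-subunit probe sets, those of Mrpl17, Mrpl42, Mrpl44 and Mrpl54 were below the floor on all 15 arrays. So was 1 of the 2 sets of Mrpl15, of Mrpl36 and of Mrpl49, whose other sets were tested.

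Genes of the small subunit, which decodes the mRNA, gave 25 probe sets for 21 genes. Of the 20 tested, 14 had a log2 change below 0 with a median of -0.11, and the values ran from -0.39 to 0.07. With each array centred on its median, 12 of 20 were below 0, with a median of -0.05. These counts follow the gene names. Without Mrps18a and Mrps36, whose proteins are known to sit elsewhere, 12 of 15 were below 0 on the deposited scale (median -0.13). No member of this group had an unadjusted p under 0.05.

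Mrps36 was the steadiest member and the 1 whose sham and TAC arrays did not overlap. Its readings on the female arrays were 182, 187 and 195 after sham, against 159, 174 and 171 after TAC. In males, intensities ranged from 183 to 200.3 with a median of 187 after sham (n = 6) and stood at 168, 168 and 176 after TAC. All 6 TAC values, from 159 to 176, were below all 9 sham values, from 182 to 200.3, so that the groups did not overlap in either sex. Among all tested probe sets, 0.161% had every TAC array below every sham array and 0.255% had every TAC array above, and of the members 1 and 0 did. The difference was small, since TAC was 0.900-fold sham. The coefficient of variation over the 9 sham arrays was 3.19%, the lowest of the tested members, whose median was 17.3%.

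The log2 change of Mrps36 was -0.15 ± 0.08 (SE) with an adjusted p of 0.696 in limma, which did not pass. Its own SD within groups was 0.051 on the log2 scale, and limma, which draws each spread towards that of all probe sets, used 0.143. In the model without that moderation, added after seeing the data, the adjusted p was 0.070, which did not pass either. With arrays rescaled to a common median its groups overlapped, so that 0 members then had groups apart. The protein is named for the ribosome but is known as a subunit of the 2-oxoglutarate dehydrogenase complex of the tricarboxylic acid cycle.

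Mrps25 had 2 probe sets that disagreed. On 102128_f_at, intensity in females was 73.1, 63.8 and 70.7 after sham and 26.6, 78.9 and 66.5 after TAC. Male sham arrays ranged from 57.7 to 71.0 with a median of 67.0 (n = 6), and male TAC arrays read 66.8, 41.7 and 47.4. Female TAC 1, male TAC 5 and male TAC 6 were below every sham array, and female TAC 2 was above every sham array. The log2 change of -0.39 ± 0.19 (SE) was the most negative of any member, with an interval of -0.79 to 0.01 and an adjusted p of 0.678 in limma. It was -0.15 without female TAC 1. On 104234_at the values were 14.97 to 27.7 on the sham arrays (median 21.4) and 19.1 to 31.3 on the TAC arrays (median 24.5), close to the floor, and the log2 change was 0.05 ± 0.11 (SE).

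Mrps26 had the smallest p of any member for a difference between the sexes, 0.065 before adjustment. Its values in females were 31.8, 41.1 and 35.3 on the sham arrays and 13.4, 21.6 and 32.6 on the TAC arrays. Those in males ranged from 19.0 to 37.1 with a median of 32.4 on the sham arrays (n = 6) and came to 30.002, 31.2 and 30.2 on the TAC arrays. In females, 2 of 3 TAC values were below all sham values, and in males the TAC values lay inside the sham range. The log2 change was -0.57 in females, the only member with an unadjusted p under 0.05 there (adjusted p = 0.944 in limma), and -0.0049 in males. The difference between the sexes was -0.57 ± 0.29 (SE) with an adjusted p of 1.00, and the average over the sexes was -0.29 ± 0.14 (SE) (adjusted p = 0.686).

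Mrps21, a small-subunit protein with a bacterial counterpart, completes the 8 members of smallest p below 0. Its intensities on the female arrays were 83.0, 96.8 and 94.8 after sham and 57.9, 99.5 and 74.3 after TAC. On the male arrays they ranged from 72.7 to 104 with a median of 85.8 after sham (n = 6) and were 73.1, 71.6 and 87.7 after TAC. Female TAC 1 and male TAC 5 were below every sham array. This amounted to a log2 change of -0.22 ± 0.13 (SE) (adjusted p = 0.754 in limma), and of -0.13 without female TAC 1. Its promoter window held the ETS motif after the gene's start, where no sequence is shown.

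Mrps18a, whose protein is incorporated into the large subunit in spite of its name, was measured by 4 probe sets. On 161767_r_at, readings on the female arrays were 242, 254 and 265 after sham, against 244, 217 and 239.8 after TAC. In males, intensities ranged from 174 to 262 with a median of 194 after sham (n = 6) and stood at 244, 252 and 234 after TAC. The groups overlapped, and the log2 change was 0.07 ± 0.10 (SE) (adjusted p = 0.911). It was -0.12 in females and 0.26 in males, with a difference between the sexes of -0.38 ± 0.20 (SE, adjusted p = 1.00 in limma). The sets 94327_at, 104767_f_at and 94326_r_at gave 0.06 ± 0.12 (SE), 0.0042 ± 0.11 (SE) and -0.10 ± 0.11 (SE), so that neither sign held over the gene. The value of 104767_f_at turned to -0.035 in the model without sex.

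Mrps15 and Mrps16 were the least certain members. Mrps15 had values of 9.88 to 122 on the sham arrays (median 18.6) and 12.6 to 23.8 on the TAC arrays (median 17.5), and its coefficient of variation of 121% over the sham arrays was the largest of the tested members. The 122 was read on male sham 4, and the next value was 26.3. Mrps15 was below the floor on 6 sham and 3 TAC arrays. Its log2 change on the floored values was -0.20 ± 0.33 (SE). Mrps16, which binds RNA early in small-subunit assembly in bacteria, had values of 23.3 to 91.0 on the sham arrays (median 38.9) and 12.1 to 52.2 on the TAC arrays (median 46.5) and a log2 change of -0.13 ± 0.28 (SE), which was 0.033 without female TAC 1.

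**Figure D5:**
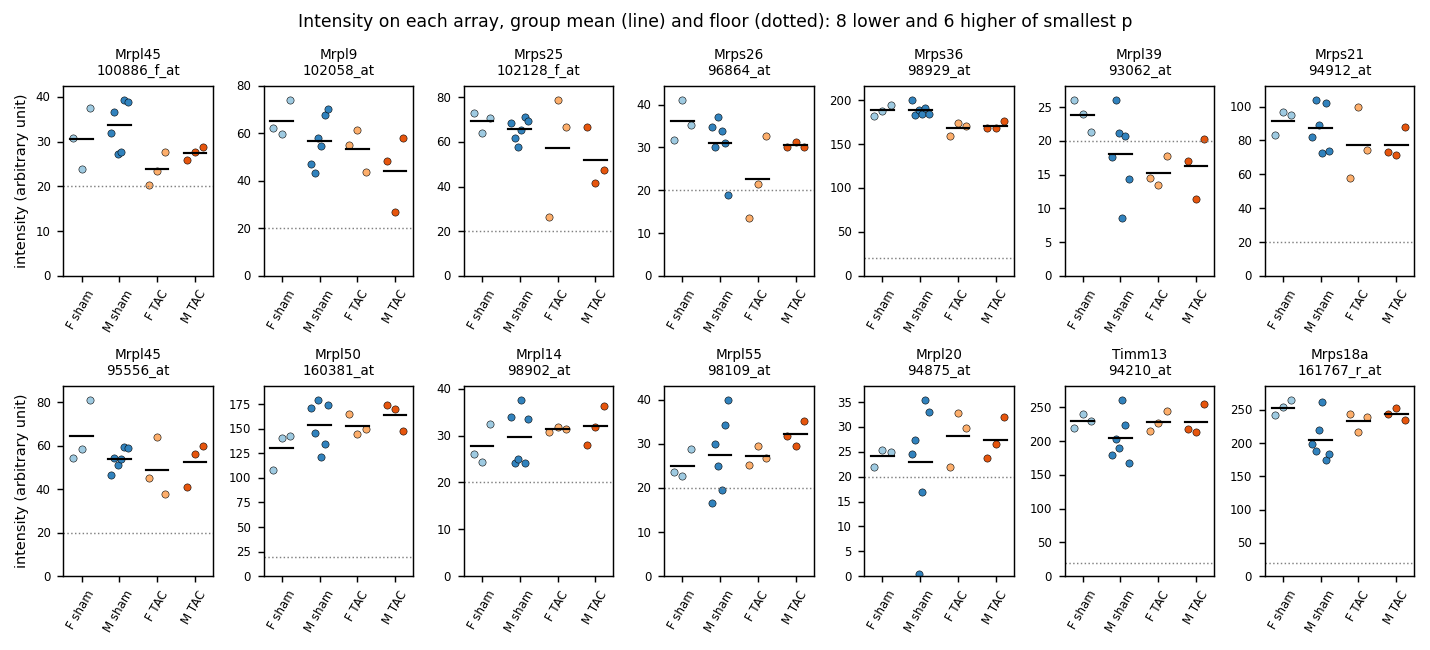
Intensity (arbitrary unit, axis from 0) on each array for the 8 probe sets of smallest p with a log2 change below 0 and the 6 of smallest p above 0, by sex and operation. F is female, M is male, lines are group means and the dotted line is the floor of 20. In the Mrps36 panel, all 6 TAC points (159 to 176) lie below all 9 sham points (182 to 200.3).

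At the outer membrane, 4 of 6 probe sets were tested, for Tomm7, Tomm34 and Tomm70a. Tomm7, a small subunit of the TOM core, had values of 31.7 to 60.6 on the sham arrays (median 45.9) and 23.5 to 50.2 on the TAC arrays (median 39.6) and a log2 change of -0.24 ± 0.17 (SE) (adjusted p = 0.810 in limma). Tomm70a encodes the receptor for carrier precursors brought by cytosolic chaperones. Its sets 95431_at and 95432_f_at gave 0.06 ± 0.14 (SE) and -0.08 ± 0.21 (SE). Tomm34, a cytosolic co-chaperone in spite of its name, had 0.02 ± 0.11 (SE). The channel Tomm40 and the presequence receptor Tomm20 were not tested, since Tomm40 was above the floor on 1 array, a sham array at 23.0, and Tomm20 on none.

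The small Tim chaperones, which escort hydrophobic precursors between the membranes, gave 8 probe sets, of which 5 were tested. Timm13, the partner of Timm8a, was among the 6 members of smallest p above 0. Its intensity in females was 220.1, 241 and 230.2 after sham and 215, 226 and 245 after TAC. Male sham arrays ranged from 167 to 261 with a median of 197 (n = 6), and male TAC arrays read 218, 213 and 255. All TAC values lay within the sham range, and the log2 change was 0.08 ± 0.11 (SE) (adjusted p = 0.908 in limma). Timm8b had 0.0027 ± 0.11 (SE), with values of 82.6 to 131 on the sham arrays (median 107) and 97.2 to 126 on the TAC arrays (median 109).

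Timm10b, which docks the chaperones on the TIM22 translocase, gave -0.16 ± 0.15 (SE) and -0.09 ± 0.10 (SE) on its 2 sets. Timm8a2, a copy of Timm8a1, gave -0.23 ± 0.20 (SE), with 0.07 in females and -0.53 in males. Its average was -0.016 without female TAC 1 and -0.43 without female TAC 2. Timm9, Timm10 and Timm8a1 were too dim for the test. Timm9 was above the floor on 1 array, a TAC array at 22.3, Timm10 on 6 arrays and Timm8a1 on 3.

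All 5 genes of the inner-membrane translocases were tested, and all 5 had a log2 change below 0. Timm23 forms the presequence channel, and its values were 371 to 583 on the sham arrays (median 503) and 340.4 to 485 on the TAC arrays (median 439). Its log2 change was -0.20 ± 0.13 (SE) (adjusted p = 0.791 in limma). Timm44 tethers the mitochondrial Hsp70 motor to that channel, with values of 114 to 142 on the sham arrays (median 127) and 53.2 to 135 on the TAC arrays (median 119). Its log2 change was -0.26 ± 0.15 (SE) (adjusted p = 0.755), with -0.48 in females and -0.03 in males. The lowest value, 53.2, was on female TAC 1, and without that array the log2 change of Timm44 was -0.064 on average and -0.094 in females. The channel partners Timm17a and Timm17b gave -0.01 ± 0.15 (SE) and -0.07 ± 0.11 (SE), and Timm22, the channel for carrier proteins, gave -0.08 ± 0.16 (SE). With each array centred on its median, 4 of the 5 were below 0.

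Probe sets of 1 gene varied together in some genes and not in others. There were 9 genes with several tested sets, with 16 pairs of probe sets. After group means were removed, the correlation over the 15 arrays ran from -0.45 to 0.59 with a median of 0.11. It was 0.59 for Mrps25, 0.52 for Mrpl18, 0.49 for Tomm70a, 0.35 for Timm10b and 0.32 for both Mrpl45 and Mrpl48. It was -0.24 for Mrpl2, and the 3 pairs of Mrpl50 and 6 pairs of Mrps18a ran from -0.45 to 0.41. In 5 of the 9 genes (Mrpl2, Mrpl50, Mrps18a, Mrps25 and Tomm70a) the sign of the TAC effect differed between probe sets. For Mrpl2, which is at the catalytic core of the large subunit, it was -0.22 ± 0.18 (SE) on 161910_at and 0.03 ± 0.13 (SE) on 95067_at.

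Each sex was also read alone. In females, 0 of 75 members were called by limma (0.0805% of all tested probe sets), with 1 member, Mrps26, at an unadjusted p under 0.05 (4.59% of all). With the replicate number as a block, 0 members were called in females, and 3 of all tested probe sets in place of 6. In males, 0 were called (0.134% of all) and 0 were at an unadjusted p under 0.05 (6.2% of all). When the TAC effect was set against itself across the sexes, 0 members and 0% of all were called, and 0 members had an unadjusted p under 0.05 (2.56% of all). The model without moderation also called 0 members in these 3 comparisons.

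Other genes of the same processes were read from lists of translation factors, tRNA synthetases, import partners, quality control proteases, mitochondrial DNA expression and nuclear regulators. Of 8 tested translation and assembly factors, 7 had a log2 change below 0 (median -0.13), such as Tufm, the elongation factor that brings aminoacyl-tRNA, with -0.11 ± 0.11 (SE). Of 6 synthetases, 3 were below 0 (median 0.03). Of 15 import partners, 10 were below 0 (median -0.04), among them Hspa9, the Hsp70 of the import motor, with -0.16 ± 0.12 (SE), while Pam16, its regulator, had 0.23 ± 0.12 (SE). Of 8 quality control genes, 6 were below 0 (median -0.07). In these 4 lists 0 genes had an unadjusted p under 0.05 and 0 were called in limma. With each array centred on its median, the numbers below 0 in these 4 lists were 5 of 8, 2 of 6, 6 of 15 and 4 of 8.

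In the list of mitochondrial DNA expression, 5 of 8 tested genes were below 0 (median -0.10). Hsd17b10, a subunit of the mitochondrial RNase P and an enzyme of isoleucine breakdown, had a mean intensity of 137 ± 18.2 (SD, n = 9) on the sham arrays, which was 109 ± 13.1 (SD, n = 6) on the TAC arrays. Its log2 change was -0.29 ± 0.11 (SE, adjusted p = 0.476 in limma), and its groups overlapped.

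All 5 tested nuclear regulators (median -0.07) were below 0, and 3 of 5 with each array centred on its median. Of these 5, 2 had an unadjusted p under 0.05 and 0 were called by limma. Gabpb1 encodes the beta subunit of GABP, whose alpha subunit binds the ETS motif. Its values were 35.1 to 46.0 on the sham arrays and 25.4 to 35.7 on the TAC arrays, which overlapped by a narrow margin. Its log2 change was -0.45 ± 0.10 (SE) with an adjusted p of 0.087 in limma, so it did not pass. The adjusted p ran from 0.037 with array weights to 0.324 with the replicate block over the alternatives, and was 0.045 without male TAC 6. Yy1, the factor of the YY1 motif, had -0.37 ± 0.15 (SE, adjusted p = 0.570). No tie between these factors and the members was tested.

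Markers of other cell types were read beside these values. Of 8 tested fibroblast markers, 7 had a log2 change above 0 (median 0.41), 5 of them at an unadjusted p under 0.05 and 0 called by limma. The summed intensity of the 9 on the array was 1163 to 1626 on the sham arrays and 1615 to 2510 on the TAC arrays. Of 10 tested cardiomyocyte markers, 6 were below 0 (median -0.04) and 4 above. At an unadjusted p under 0.05 in limma 2 were below 0, Ryr2 (-0.52 ± 0.13, SE) and Myh6 (-0.32 ± 0.13, SE). At that limit 0 were above, and 0 were called. Endothelial (median -0.01) and macrophage and leukocyte (median -0.02) markers had 4 of 7 tested genes each below 0. Smooth muscle markers had 3 of 4 below 0 (median -0.27) with a summed intensity of 294 to 377 after sham and 215 to 370.3 after TAC. Skeletal muscle markers had 5 of 5 below 0, fat cell markers 2 of 2, red blood cell markers 2 of 2, and atrial markers 2 of 3, with Nppa called higher. With each array centred on its median, 4 of 10 cardiomyocyte markers were below 0 and 0 of 8 fibroblast markers. Below 0 were then 2 of 7 endothelial, 3 of 7 macrophage and leukocyte and 3 of 4 smooth muscle markers. So were 4 of 5 skeletal muscle, 1 of 2 fat cell, 0 of 2 red blood cell and 1 of 3 atrial markers. The part of the cell mixture in the members' values was not tested.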

How the data were processed

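The 15 arrays, 9 sham and 6 TAC, measured total RNA from mouse left ventricles. The values table deposited by the authors holds 1 intensity per probe set and array on a linear scale, with 8722 exact zeros and no negative value, and how these intensities were summarised and scaled is not given in the sources used here. Symbols came from the array's annotation, and probe sets with several symbols were left out. From the 12422 probe sets that are not controls, values were floored at 20 and put on the log2 scale, and the 60% with the highest mean were kept. Means of the 4 groups (sex by operation) were fitted with limma 3.58.1 (lmFit and eBayes, R 4.3.3), with Benjamini-Hochberg adjustment and a threshold of 0.05. The fit was tested on simulated data with independent noise, no floor and no shift of whole arrays. Number of arrays limits the precision. Of arrays sharing a replicate number, correlations of deviations were 0.24, 0.27 and 0.12 in females and 0.06, -0.08 and 0.01 in males. The numbers thus met the limit of 0.1 for a pairing in females and not in males. The main fit has no block, and the fit with the replicate number as a block is an alternative.

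The probe sets described were the 8 of smallest p below 0, the 6 above 0, the 2 of smallest p for the difference between the sexes, those whose groups did not overlap, and all sets of genes whose sets disagreed. Import and other genes were described by role. The members and lists were chosen with earlier results of these data known. The alternatives were other models, scalings, floors and filters, array weights, a replicate block, and leaving out each array. The model without moderation, and the interval count under each alternative, were added after seeing the data.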

Additional observations from a re-analysis of the deposited data

How the results depend on the processing

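Under the 13 other settings and with each of the 15 arrays left out in turn, 0 members were called for the averaged effect in every fit, and likewise for females, males and their difference wherever these were fitted. The count of members below 0 ran from 40 (of 56 tested, stricter filter) to 55 (of 75 with array weights, of 95 with no filter) over the other settings and from 44 to 64 with 1 array left out, and the member median from -0.12 to -0.02 and from -0.14 to -0.03. The count with an interval within 1.5-fold ran from 50 to 79 and from 54 to 68, and the number of members tested also changed there. The count of members whose groups did not overlap was 1 as deposited and with quantile normalization, and 0 with median centring. It was read from intensities before any fit, so changes of model or array weights could not alter it. Leaving out an array could not make groups that were apart overlap. Of 19 values that changed sign, Mrps18a on 104767_f_at was -0.035 without a sex term and -0.016 in the additive model of sex and operation, and on 94326_r_at it was 0.018 with array weights. With 1 array left out, log2 changes ran from -0.043 to 0.042 for 104767_f_at, from -0.017 to 0.14 for 94327_at, from -0.023 to 0.13 for Mrps25 104234_at, from -0.087 to 0.089 for Mrpl2 95067_at, from -0.022 to 0.15 for Tomm70a 95431_at, from -0.24 to 0.026 for Tomm70a 95432_f_at and from -0.27 to 0.027 for Mrpl50 96861_at. Without a change of sign, Mrps25 102128_f_at ran from -0.54 to -0.15, Mrpl9 from -0.47 to -0.19, Mrps21 from -0.32 to -0.13, Mrpl45 95556_at from -0.34 to -0.15 and Mrpl20 from 0.07 to 0.22. The cause was not tested.

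Over all probe sets, 24 were called, against 45 with median centring, 42 with quantile normalization, 68 with array weights, 10 with the low floor, 13 with no filter, 13 without moderation and from 12 to 29 with 1 array left out. The replicate numbers are shared between groups within a sex, and the deviations of arrays with the same number correlated over the limit in females and not in males. With the replicate block, 8 probe sets and 0 members were called, 52 members were below 0, and the member median was -0.06. Values at or under the floor carry no order, which limits the 18 tested members below it on some arrays and the 20 members not tested.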

Other observations

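Dim members gave a few high single values. Mrps24, a small-subunit gene that was not tested, was listed at 35.7 on male TAC 5 and between 3.52 and 19.4 on the other 14 arrays. Those 14 values were all below the floor. The other male TAC arrays read 14.2 and 19.4, above the male sham arrays at 3.52 to 10.9, and in females the groups overlapped. Mrps15 was listed at 122 on male sham 4 and between 9.88 and 26.3 on the other 14 arrays.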
